A study of Mus musculus with 10 samples.

Results

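The cells described here are the Msmp- and Sox9-positive cells of the enthesis, the attachment to bone, of the supraspinatus, a shoulder tendon, in the mouse. A cell was included when it had at least 2 UMIs (counted molecules) of Msmp, at least 1 of Sox9 and none of Ptprc, Cdh5, Matn1 and Ibsp, genes that mark leukocytes, endothelium, hyaline cartilage and mineralising cells. There were 163 such cells, 63 at postnatal day 11 (P11) and 100 at P18, out of 8348 cells that passed the filters in these libraries. They are called Msmp-Sox9 cells below. The cells were thus chosen by their measured Msmp, Sox9, Ptprc, Cdh5, Matn1 and Ibsp counts, and the levels of these genes are not a result.

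Droplet libraries were made from wild-type C57BL/6 mice, whose whole entheses were pooled at P11, P18 or P56, with live cells negative for the leukocyte protein Cd45 sorted and 1 library made per age. Plates of 96 wells came from pooled entheses of Gli1CreERT;Ai14 mice at 7 ages from P7 to P42, all given tamoxifen at P5 and P7. In that model a Cre enzyme driven from Gli1, a gene switched on by Hedgehog signalling, turns on a red reporter in cells active for Gli1 when the drug is given, and in their descendants. The wording of the plate sort does not settle whether red cells were the ones kept. With 1 library per age, ages could not be tested in the droplets. Cell classes were cut from the same counts and were not tested, and the values below compare these libraries.

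As background, an enthesis passes from tendon through unmineralised and mineralised fibrocartilage to bone. Sox9 is the transcription factor that starts and maintains the cartilage programme, whereas Scx marks tendon cells and, together with Sox9, the progenitors of the attachment. Hedgehog signalling maintains fibrocartilage and its mineralisation, while parathyroid hormone-related protein (Pthlh) restrains hypertrophy. Msmp encodes a small secreted protein, Smoc1 a matrix protein that binds calcium and antagonises bone morphogenetic proteins (BMPs), and Cytl1 a secreted protein known from chondrocytes. In the GRCm38 annotation Msmp (ENSMUSG00000078719) lies on chromosome 4, 43583216 to 43584494. Smoc1 (ENSMUSG00000021136) is on chromosome 12, 81026808 to 81186414.

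The cells were looked at under the working label of fibrocartilage progenitors, which the values below do not settle. The cells carried Col2a1, the collagen of cartilage, at 36198 CPM (summed UMIs scaled to a common total) at P11 and 26420 at P18. Smoc1 and Cytl1 were both present. Prg4, which encodes lubricin, the lubricant made by superficial cells of articular cartilage and by synovium, stood at 22237 CPM and 30009 CPM. Scx was at 6.47 CPM and 7.22 CPM, and Col1a1, the main collagen of tendon and fibrocartilage, at 1097 CPM and 920 CPM. Mki67, a marker of dividing cells, had 1 UMI at each age. They are therefore named here by their genes and given no cell type.

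Msmp-Sox9 cells made up 2.13% of 2952 cells at P11 (exact binomial 95% interval 1.64 to 2.72) and 1.85% of 5396 at P18 (1.51 to 2.25). Of all these cells, 436 at P11 and 2536 at P18 had a Ptprc UMI, which the rule excludes. The shares depend on that number, so they do not compare the ages. At P56 none of 5131 cells met the rule, which allows a share of up to 0.0585%, and Msmp had 2 UMIs in those cells, in 2 of them. The absence was not particular to these cells. At P56 0 cells had 3 or more Matn1 UMIs. Cells with 3 or more Ibsp UMIs made up 0.604% there and 11.3% at P18. All such intervals cover counting error only. The median depth was 11601 UMIs per cell at P11 and 9397 at P18, and the summed counts were 772720 and 969315 UMIs. No barcode of these cells was shared between libraries, although P11 and P18 shared 4 barcodes. Under a stricter cell filter (1000 genes and 5% mitochondrial counts) 18 cells were left at P11, where the cells' median mitochondrial share was 5.74%.

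Every cell with at least 2 Msmp UMIs could be accounted for. At P11 there were 88, of which 84 also had Sox9 and 63 met the whole rule. Matn1 was present in 18 of the 84 and Ibsp in 5. At P18 there were 188, of which 177 had Sox9 and 100 met the rule. Ibsp was present in 73 of those 177, Matn1 in 5 and Ptprc in 4. In 36 of the 73 the Ibsp count was 1 or 2 UMIs. Of the 2536 cells with Ptprc at P18, 2.72% (2.12 to 3.43) carried an Ibsp UMI at any count. That share has another limit, so it gives no background for the 36 cells.

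The cells on either side of the Msmp limit differed in Col1a1. At exactly 2 UMIs there was 1 cell at each age, both with Col1a1 at 0. At exactly 1 UMI, with all other criteria met, there were 11 cells at P11 and 18 at P18, and their Col1a1 stood at 55580 CPM and 22983 CPM. Cells with 2 to 19 Msmp UMIs (15 and 27 cells) had Prg4 at 13166 CPM and 17822 CPM. In cells with 20 or more (48 and 73 cells) Prg4 was at 24863 CPM and 34815 CPM, and Smoc1 at 586 CPM and 519 CPM against 311 CPM and 208 CPM in the cells with fewer.

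At P18 cells on either side of the Ibsp limit were alike in Cytl1 and Smoc1 but not in Prg4 and in the summed Col1a1. There, 40 cells had 20 or more Msmp UMIs together with Ibsp and no Matn1. Their Cytl1 was at 4846 CPM, Smoc1 at 485 CPM and Col1a1 at 30.1 CPM. In the Msmp-Sox9 cells with 20 or more Msmp UMIs these were at 5253 CPM, 519 CPM and 860 CPM. Few cells carried the Col1a1 sum. Of all 100 Msmp-Sox9 cells at P18, 80 had no Col1a1 UMI and 5 held 91.4% of its UMIs. Of the 40 cells, 21 had 1 or 2 Ibsp UMIs, with Prg4 at 26437 CPM, and 19 had 3 or more, with Prg4 at 6978 CPM. It was at 34815 CPM in the Msmp-Sox9 cells with 20 or more Msmp UMIs. Pthlh was at 128 CPM and 39.4 CPM in the 21 and the 19 cells, against 175.5 CPM in those Msmp-Sox9 cells. At P11 no cell was of this sort. The 7 cells at P11 with 20 or more Msmp UMIs and Matn1 had Prg4 at 927 CPM.

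Msmp itself spread widely among the cells that it chose. At P11 it ran from 103 CPM to 58866 CPM with a median of 4681, and at P18 from 215 CPM to 220551 CPM with a median of 11532. Prg4 had a median of 20405 CPM per cell at P11 (highest 75388) and of 24290 at P18 (highest 122430). It was at 0 in 1 cell and in 2 cells. At least 10000 CPM of Prg4 was found in 49 of 63 and 72 of 100 cells. Under 1000 CPM it was found in 4 and 10 cells.

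Cells high in Prg4 tended to be low in Col2a1. Over cells thinned to 5000 UMIs the rank correlation of Prg4 with Col2a1 was -0.44 at P11 (61 cells) and -0.53 at P18 (98 cells). Msmp went with Prg4 at 0.30 and 0.36, and with Col2a1 at -0.13 and -0.33. All cells of an age share a library and each cell's counts share a total of 5000, so these are descriptions with no test. Col2a1 was present in every Msmp-Sox9 cell, from 780 CPM to 75175 CPM at P11 and from 243 CPM to 103261 CPM at P18.

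**Figure D1:**
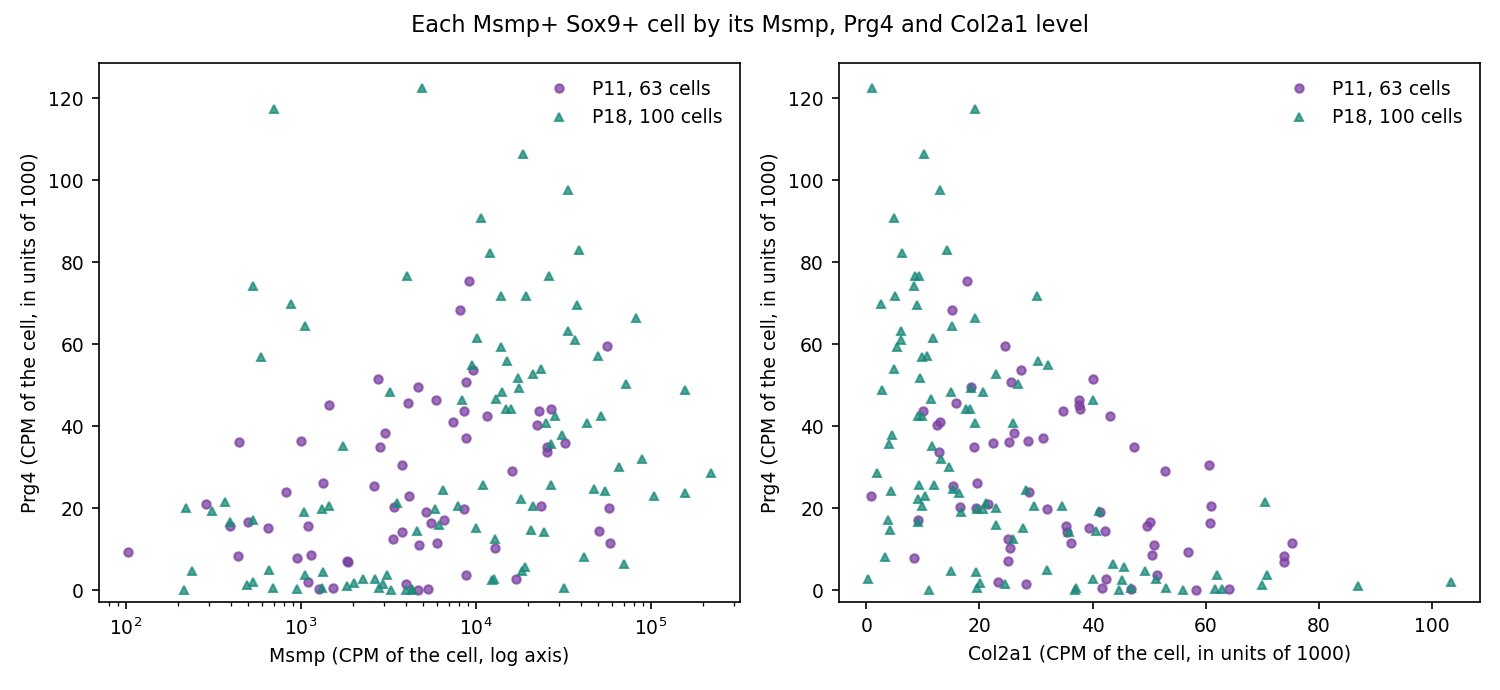
Each point is 1 Msmp-Sox9 cell, with Prg4 (CPM of the cell, in units of 1000) on the vertical axis against Msmp (CPM, log axis, left) and Col2a1 (CPM in units of 1000, right), circles for the 63 cells at P11 and triangles for the 100 at P18. Cells with the highest Prg4 lie at low to middle Col2a1, and Prg4 spans its whole range over a wide range of Msmp.

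For comparison, Matn1 cells had at least 3 UMIs of Matn1 (122 cells at P11, 149 at P18), Ibsp cells at least 3 of Ibsp (144 and 609) and Tnmd cells at least 3 of Tnmd, the tendon membrane protein tenomodulin, with no Ptprc, Cdh5, Matn1, Ibsp or Msmp (1099 and 263). Matn1 and Ibsp cells overlapped in 20 cells at P11 and 82 at P18. Their median depths were 19139 and 16346 UMIs (Matn1), 16370 and 11032 (Ibsp) and 14291 and 10457 (Tnmd). A gene is called higher or lower below when the CPM differed at least 2-fold in the same direction in both libraries, among genes with at least 20 UMIs over the classes compared in each library. This is a rule of size and not a test, and what the selection on Matn1, Ibsp and Tnmd fixes cannot be told apart from what it does not.

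Against the Matn1 cells, 552 of 7620 genes were higher in the Msmp-Sox9 cells (7.24%) and 345 were lower (4.53%). The split depends on the scaling. With TMM factors, which set most genes level, 242 were higher and 519 lower. Without them the median gene stood at a log2 ratio of 0.31 at P11 and 0.30 at P18. Against the Ibsp cells 280 of 8431 genes were higher (3.32%) and 354 lower (4.2%), with median log2 ratios of 0.24 and 0.14. There TMM gave 181 higher and 473 lower, and a total without mitochondrial and the 20 most abundant genes gave 197 and 448. Against the Tnmd cells 622 of 9075 were higher (6.85%) and 780 lower (8.6%). These shares over all genes are the background for the list counts below.

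Prg4 led the genes that set Msmp-Sox9 cells above Matn1 cells. It was at 86.2 CPM in Matn1 cells at P11 and 119 CPM at P18, against 22237 (95% Poisson interval 21906 to 22572) and 30009 (29665 to 30356), so at least a 252-fold difference at either age. Ibsp cells had 56.4 CPM and 768 CPM of Prg4, and Tnmd cells 508 CPM and 1917 CPM. After thinning to 5000 UMIs, 98.4% of Msmp-Sox9 cells at P11 and 94.9% at P18 had a Prg4 UMI, against 8.4% and 6.16% of Matn1 cells. The share was 5.33% and 3.03% in cells with Ptprc, taken as a background, which had median depths of 11724 and 6748 UMIs. Unthinned, the Msmp-Sox9 shares were 98.4% and 98.0%.

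Several secreted proteins and proteases followed. Mmp3, a matrix metalloproteinase, had 68 and 113 UMIs in Msmp-Sox9 cells and 0 in Matn1 cells, which makes it at least 73.8-fold higher at P11 with 3 counts allowed over the Matn1 cells. It was found in 15 of 63 and 19 of 100 cells. Htra4, a serine protease, was at 66.0 CPM and 71.2 CPM in the Msmp-Sox9 cells against 1.19 CPM and 1.93 CPM in Matn1 cells. Myoc, which encodes the secreted glycoprotein myocilin, was at 136 CPM and 410 CPM against 6.36 CPM and 3.48 CPM. Igfbp5, an insulin-like growth factor binding protein, was at 903 CPM and 547 CPM against 46.9 CPM and 12.4 CPM.

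**Figure D2:**
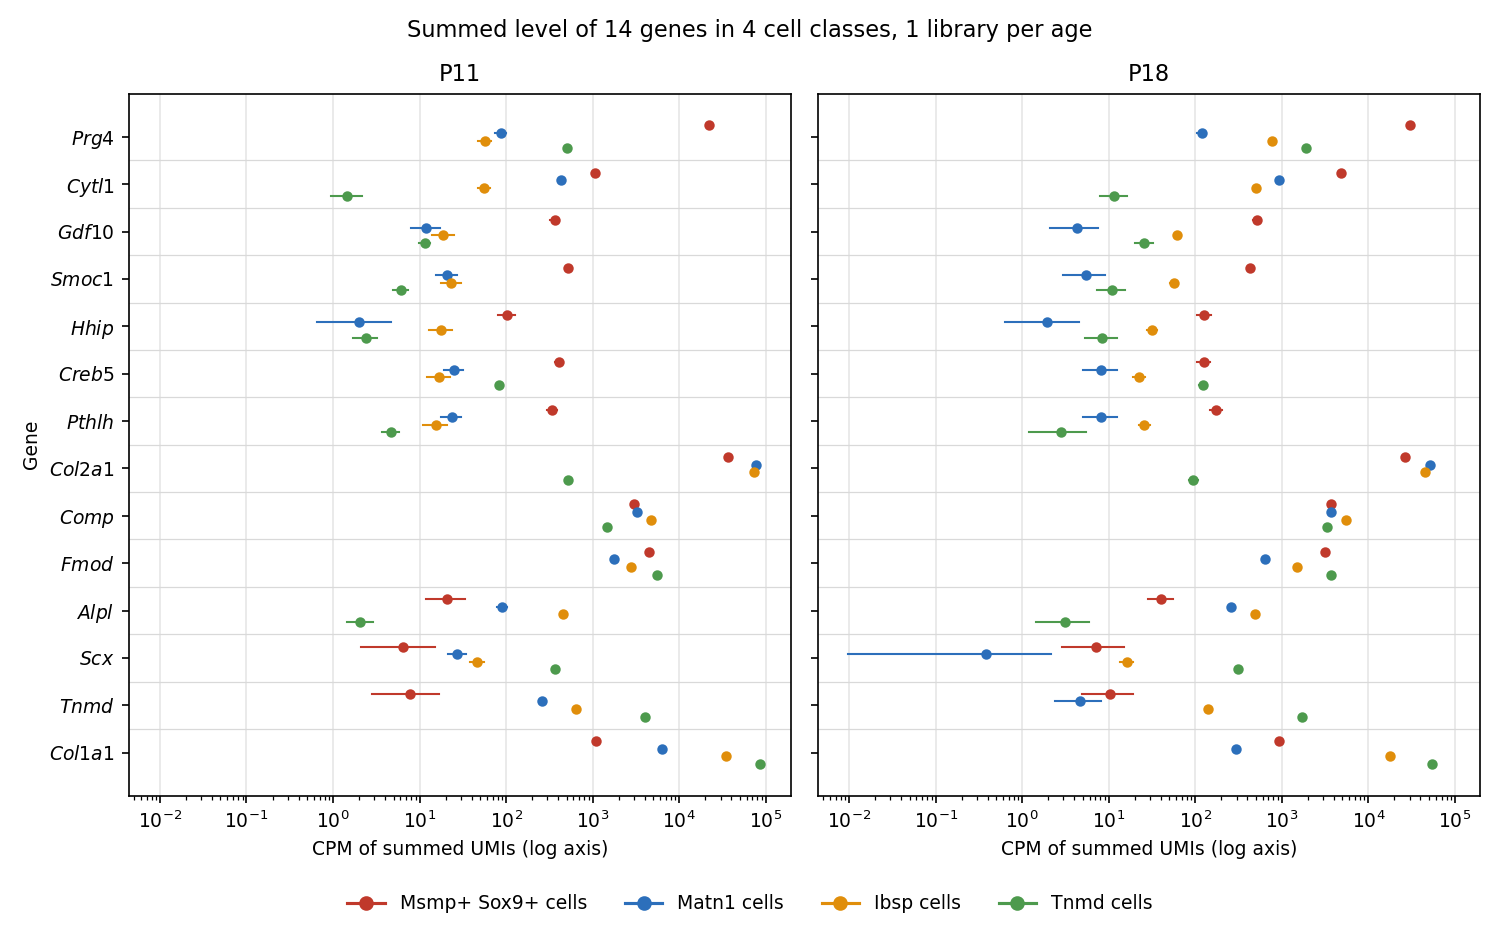
CPM of summed UMIs (log axis) of 14 genes in Msmp-Sox9 cells (red), Matn1 cells (blue), Ibsp cells (orange) and Tnmd cells (green) at P11 (left) and P18 (right), with exact Poisson 95% intervals that cover counting error only and, for high counts, are narrower than the point. Prg4 is highest in the red class by more than 10-fold at both ages, while Scx, Tnmd and Col1a1 are lower in it than in the Ibsp and Tnmd cells.

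Smoc1, the BMP antagonist, marked these cells although the rule did not use it. It stood at 524 CPM (474 to 578) at P11 and 431 CPM (391 to 475) at P18. Matn1 cells had 20.7 CPM and 5.41 CPM of Smoc1, Ibsp cells 23.1 CPM and 56.4 CPM, and Tnmd cells 6.03 CPM and 10.8 CPM. A Smoc1 UMI was found in 75.4% of thinned cells at P11 (62.7 to 85.5) and in 73.5% at P18 (63.6 to 81.9), and in 92.1% and 84.0% without thinning. The share in cells with Ptprc was 0.761% and 0.379%. Smoc1 and Cytl1 are markers named with the label, so their presence is no independent support for it.

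Among genes higher than in Tnmd cells, Cytl1 differed most, at 1051 CPM (980 to 1126) at P11 and 4861 CPM (4723 to 5002) at P18 against 1.46 CPM and 11.5 CPM. Matn1 cells had 427 CPM and 934 CPM of Cytl1, and Ibsp cells 55.6 CPM and 496 CPM. The 31 Ibsp cells of the P56 library, where no Msmp-Sox9 cell was found, had Cytl1 at 6872 CPM. High Cytl1 was therefore not limited to cells with Msmp.

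Among ligands of the BMP and TGF-beta family, 3 of 7 counted genes were higher than in Matn1 cells (Bmp4, Gdf10 and Tgfb3) and none was lower. Gdf10, a BMP-like ligand also known as BMP3B, was at 364 CPM (322 to 409) and 511 CPM (467 to 558) in Msmp-Sox9 cells. It was at 11.9 CPM and 4.25 CPM in Matn1 cells, 18.8 CPM and 61.9 CPM in Ibsp cells and 11.5 CPM and 25.8 CPM in Tnmd cells. A Gdf10 UMI was found in 56 of 63 and 85 of 100 cells. Gdf5, the joint-forming ligand, had 8 and 6 UMIs. Of 6 receptors counted, Acvr1, Tgfbr2 and Tgfbr3 were higher than in Matn1 cells, but with TMM factors 1 of the 6 was.

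Antagonists lay on both sides. Against Matn1 cells 2 of 14 were higher (Smoc1 and Ltbp3, 1 with TMM factors) and 5 lower (Smoc2, Nog, Chrdl1, Chrdl2 and Ltbp1). Over all genes counted the shares were 7.24% and 4.53%. Nog, which encodes noggin, had 0 UMIs in Msmp-Sox9 cells at both ages and 13.5 CPM and 13.9 CPM in Matn1 cells. Smoc2, the paralogue of Smoc1, was at 23.3 CPM and 11.3 CPM against 257 CPM and 176 CPM. Grem1, which encodes the BMP antagonist gremlin, was at 42.7 CPM and 54.7 CPM, above Ibsp cells (3.53 CPM and 11.8 CPM) and Tnmd cells (3.35 CPM and 0 UMIs). None of the 8 target genes was called against Matn1 or Ibsp cells. The targets included Id1, at 2535 CPM and 1431 CPM in Msmp-Sox9 cells.

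In the Hedgehog and PTHrP list, 6 of 11 counted genes were higher than in Matn1 cells (Gli1, Hhip, Boc, Cdon, Gas1 and Pthlh) and 1, Pth1r, was lower; with TMM factors 3 were higher and 1 lower. Against Ibsp cells 5 of 13 were higher and 2, Ihh and Pth1r, lower. Against Tnmd cells 5 of 12 were higher and none lower. The median log2 ratio of the list to Matn1 cells was 1.07 at P11 and 1.28 at P18, beside 0.31 and 0.30 over all genes.

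By role, the ligand Ihh had 0 UMIs in Msmp-Sox9 cells at both ages, and Matn1 cells had 4.77 CPM and 14.7 CPM of it. The receptor Ptch1, itself a target of the pathway, was at 51.8 CPM and 21.7 CPM, below the 93.3 CPM and 95.6 CPM of Ibsp cells. The target Gli1 was at 25.9 CPM (15.8 to 40.0) and 17.5 CPM (10.2 to 28.1), against 12.3 CPM and 8.49 CPM in Matn1 cells, and rests on 20 and 17 UMIs. Hhip, a decoy receptor and target, was at 102 CPM (80.9 to 127) and 127 CPM (105 to 151) against 1.99 CPM and 1.93 CPM. The smaller ratio was 51.5-fold, but the level in Matn1 cells rests on 5 UMIs at each age. Hhip was found in 23 of 63 and 37 of 100 Msmp-Sox9 cells, with 25.3% of its P11 UMIs in 1 cell. The co-receptor Gas1 was at 738 CPM and 809 CPM, near the 849 CPM and 868 CPM of Tnmd cells and above the 128 CPM and 69.1 CPM of Matn1 cells.

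Pthlh and its receptor were split between classes. Pthlh was at 340 CPM (300 to 384) at P11 and 174 CPM (149 to 203) at P18 in Msmp-Sox9 cells. It was at 23.4 CPM and 8.11 CPM in Matn1 cells, 15.3 CPM and 25.9 CPM in Ibsp cells and 4.63 CPM and 2.79 CPM in Tnmd cells. A Pthlh UMI was found in 57.4% and 34.7% of thinned cells (73.0% and 49.0% unthinned). Among cells with Ptprc it was found in 0.254% and 0.126%. Pth1r went the other way, at 42.7 CPM and 50.6 CPM in Msmp-Sox9 cells against 286 CPM and 363 CPM in Matn1 cells and 455 CPM and 387 CPM in Ibsp cells.

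**Figure D3:**
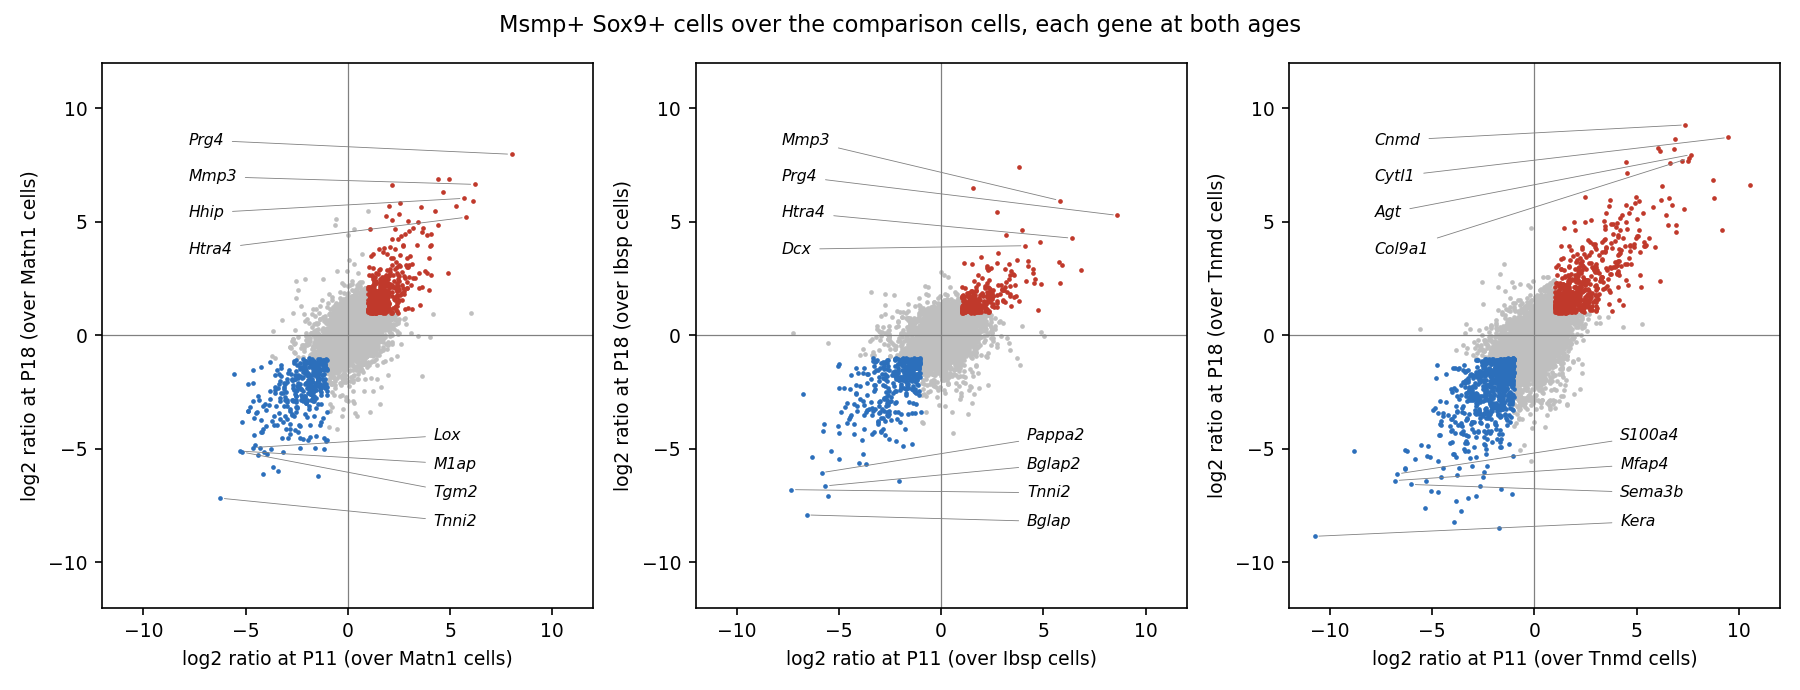
Log2 ratio of CPM in Msmp-Sox9 cells over Matn1 cells (left), Ibsp cells (middle) and Tnmd cells (right), at P11 on the horizontal and P18 on the vertical axis, 1 point per gene counted (genes that chose the classes left out), with genes at least 2-fold higher (red) or lower (blue) at both ages. Labels mark leading genes, with Prg4 at 8.01 and 7.98 over Matn1 cells.

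Of the WNT list, 2 of 12 counted genes were higher than in Matn1 cells (1 with TMM factors) and 6 lower. Over all genes counted against Matn1 cells, 7.24% were higher and 4.53% lower. The inhibitor Wif1 was at 1871 CPM and 1785 CPM against 481 CPM and 493 CPM, and also high in Ibsp cells (2534 CPM and 2197 CPM). The secreted inhibitor Frzb was at 28.5 CPM and 74.3 CPM in Msmp-Sox9 cells, where Matn1 cells had 1020 CPM and 1053 CPM. Sfrp5, of the same family, had 4 and 7 UMIs, and the inhibitor Dkk1 0 and 1. The secreted WNT inhibitors were thus spread unevenly over the classes. In the FGF list, 2 of 10 counted genes were higher than in Matn1 cells (Fgfr2, an FGF receptor, and Spry4, a feedback inhibitor) and 1, Fgfr3, lower. With TMM factors none was higher and 2 were lower. Against Tnmd cells 6 of 11 were higher, Fgfr3 among them, and 2 lower. Fgfr3, the receptor that restrains chondrocyte proliferation, was at 19.4 CPM and 22.7 CPM, against 78.7 CPM and 74.9 CPM in Matn1 cells and 1.46 CPM and 3.49 CPM in Tnmd cells.

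Among transcription factors, 4 of 19 counted were higher than in Matn1 cells (Creb5, Osr2, Barx1 and Dlx5) and 6 lower (Runx2, Sp7, Foxa2, Foxa3, Mef2c and Nfatc2), and the counts were the same with TMM factors. Creb5, a factor known to support Prg4 expression in articular cartilage, was at 410 CPM (366 to 458) at P11 and 125 CPM (104 to 149) at P18, against 25.03 CPM and 8.11 CPM in Matn1 cells. Tnmd cells had 83.4 CPM and 124 CPM of Creb5. After thinning, 82.0% and 37.8% of Msmp-Sox9 cells had a Creb5 UMI, and so did 36.8% and 2.97% of cells with Ptprc. Foxd1, a forkhead factor, led against Ibsp cells at 116 CPM and 49.5 CPM against 1.96 CPM and 5.83 CPM.

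Runx2 and Sp7, the factors that drive hypertrophy and bone formation, were close to absent. Runx2 had 1 and 3 UMIs, against 38.1 CPM and 31.3 CPM in Matn1 cells and 67.4 CPM and 46.9 CPM in Ibsp cells. Sp7 had 0 and 1. Sox5 and Sox6, which act with Sox9, were called against Tnmd cells but not against the cartilage classes. Sox9 was part of the rule.

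The cartilage matrix list separated the classes by degree. Against Tnmd cells 17 of 26 genes were higher and 2 (Cilp and Cilp2) lower, and the median log2 ratio was 3.75 at P11 and 3.63 at P18. Against Matn1 cells 3 were higher (Cytl1, Prg4 and Vit) and 11 lower, with medians of -1.22 and -0.97. With TMM factors the split was 2 and 16. Acan, the aggrecan core protein, was at 725 CPM and 696 CPM against 1951 CPM and 1878 CPM in Matn1 cells. Matn3 was at 360 CPM and 527 CPM against 2004 CPM and 1303 CPM, and Col9a1 at 2371 CPM and 2331 CPM against 4273 CPM and 3482 CPM. Vit, which encodes the matrix protein vitrin, was higher at 778 CPM and 1346 CPM against 72.3 CPM and 42.5 CPM.

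Tendon genes were low beside Tnmd cells, the class that a tendon gene chose, but not beside Matn1 cells. Beside Ibsp cells some were low, Scx and Col1a1 among them. Against Tnmd cells none of 25 counted genes of the tendon list was higher and 17 were lower. Against Matn1 cells 5 of 20 were higher (Fmod, Col5a1, Col14a1, Prelp and Htra3; 2 with TMM factors) and none was lower, with median log2 ratios of 0.59 and 1.10. Against Ibsp cells 2 of 25 were higher (Col14a1 and Lum, none with TMM factors) and 5 lower (Scx, Tnmd, Col1a1, Col1a2 and Angptl7). The median log2 ratios there were -0.38 and -0.25. Kera, the proteoglycan keratocan, had 1 and 0 UMIs in Msmp-Sox9 cells against 2212 CPM and 1427 CPM. Scx was at 6.47 CPM (2.10 to 15.1) and 7.22 CPM (2.90 to 14.9) against 370 CPM and 313 CPM. Tnmd had 6 and 10 UMIs, and all 10 at P18 came from 1 cell. After thinning, Scx was found in 1.64% and 2.04% of cells, and in 3.30% and 0.505% of cells with Ptprc. Fmod, the proteoglycan fibromodulin, was at 4523 CPM and 3159 CPM against 5601 CPM and 3683 CPM in Tnmd cells and 1759 CPM and 633 CPM in Matn1 cells.

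Col1a1 was at 1097 CPM at P11 and 920 CPM at P18, where Tnmd cells had 86800.4 CPM and 54680 CPM and Ibsp cells 34679 CPM and 17884 CPM. Cells with Ptprc, taken as a background, had 4584 CPM and 448 CPM. Tnmd, a tendon gene, was also found in 9.86% and 1.03% of the cells with Ptprc. They are therefore not cells known to lack Col1a1. Col1a1 was at 0 in 18 of 63 and 80 of 100 Msmp-Sox9 cells, and 5 cells held 73.3% and 91.4% of its UMIs. After thinning it was found in 54.1% and 17.3% of Msmp-Sox9 cells and in 49.5% and 9.60% of cells with Ptprc. At P11 the summed level did not exceed that of the cells with Ptprc. At P18 it did, on a sum that 5 cells dominated, while the median Msmp-Sox9 cell had 0 Col1a1 UMIs.

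Genes of mineralisation were low beside Ibsp and Matn1 cells and not beside Tnmd cells, and the rule, which excluded Ibsp, bears on this list. Against Ibsp cells 14 of 21 were lower and 1 higher. Against Matn1 cells 9 of 16 were lower and 1 higher. Against Tnmd cells 6 of 12 were higher (Alpl, Spp1, Smpd3, Ank, Slc20a1 and Mgp) and none lower, with median log2 ratios of 1.20 and 1.30. Alpl, the phosphatase that frees phosphate for mineral, was at 20.7 CPM and 40.2 CPM against 451 CPM and 485 CPM in Ibsp cells and 2.07 CPM and 3.14 CPM in Tnmd cells. Bglap, which encodes osteocalcin, had 0 UMIs at both ages, and at 3 counts allowed over the cells this is at least 95.1-fold lower than in Ibsp cells at P11. Col10a1, the collagen of hypertrophic cartilage, also had 0 UMIs. Ank, a transporter involved in exporting pyrophosphate, an inhibitor of mineral growth, was the gene higher against Ibsp and Matn1 cells. It was at 378 CPM (336 to 424) and 524 CPM (479 to 572) against 72.9 CPM and 164 CPM in Ibsp cells and 48.9 CPM and 65.6 CPM in Matn1 cells.

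Of 16 surface genes often used for progenitors, none was higher than in Tnmd cells and 9 were lower, with median log2 ratios of -1.08 and -2.35. Cd34 was at 60.8 CPM and 4.13 CPM in Msmp-Sox9 cells and at 124 CPM and 164 CPM in Tnmd cells. Against Matn1 cells Pdgfra and Itga11 were higher among 10 counted and none was lower. Against Ibsp cells Itga11 was higher among 12 (none with TMM factors) and none was lower. Of 9 cell cycle genes counted against Tnmd cells 2 were lower (Top2a and Tyms), and of 14 against Ibsp cells 6 were lower, with none higher in either. Over all genes, 7.24% were higher and 4.53% lower than in Matn1 cells. The shares were 3.32% and 4.2% against Ibsp cells, and 6.85% and 8.6% against Tnmd cells. Few or no calls in lists this short are not set apart from these shares. Mki67 was lower than in Ibsp cells and had too few UMIs to be counted against Matn1 and Tnmd cells.

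Between P11 and P18, 313 of 6676 genes were at least 2-fold higher at P18 within the Msmp-Sox9 cells (4.69%) and 471 lower (7.06%). With TMM factors the split was 403 and 401. These are 2 libraries of different pools, so age cannot be told apart from pool. The pools differed in sex-chromosome transcripts. Xist, transcribed from the inactive X chromosome of females, was found in 63 of 63 cells at P11 and in 11 of 100 at P18. A UMI of Ddx3y, Eif2s3y, Uty or Kdm5d, genes of the Y chromosome, was found in 1 and in 71 cells.

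The same imbalance ran between classes. At P11 the share with Xist was 91.8% in Matn1 cells and 73.9% in Tnmd cells, and at P18 it was 18.8% and 57.4% against 11.0% of Msmp-Sox9 cells. Its part in the class comparisons was not tested.

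The cartilage matrix list leaned to P18, with 5 of 25 higher (Cytl1, Clec3a, Chad, Scrg1 and 3110079O15Rik) and none lower. Cytl1 differed by 2.21 on the log2 scale between P11 and P18. It was higher at P18 in Matn1 cells too (427 CPM and 934 CPM). The same held in Ibsp cells (55.6 CPM and 496.5 CPM) and Tnmd cells (1.46 CPM and 11.5 CPM). Over all kept cells Cytl1 was at 56.9 CPM and 264.5 CPM, so the rise was not particular to Msmp-Sox9 cells. Agt, which encodes angiotensinogen, was at 62.1 CPM and 262 CPM, where Matn1 cells had 15.1 CPM and 17.8 CPM. Il11, a cytokine of the interleukin family, was at 6.47 CPM and 53.6 CPM and was present in 2 and 9 cells. S100a9, a neutrophil transcript, was at 0 and 72.2 CPM, and over all kept cells of the libraries it was at 414 CPM and 25370 CPM. The summed level of 12 immune genes in Msmp-Sox9 cells was 69.9 CPM and 273 CPM. Their part in these differences was not tested.

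Immediate-early and stress genes, which respond quickly to stimuli, were lower at P18, with 10 of 16 lower and none higher, and a median log2 ratio of -1.35 beside 0.01 over all genes. Fos was at 7137 CPM and 3321 CPM, Jun at 1540 CPM and 467 CPM and the heat-shock gene Hspa1a at 1022 CPM and 136 CPM. In the same list 1 of 16 genes was lower at P18 in Matn1 cells, 2 in Ibsp cells and 1 in Tnmd cells, where 5.62%, 4.1% and 8.01% of all genes counted were lower. The difference between classes was not tested. The median mitochondrial share, a sign of cell quality, also differed, at 5.74% and 3.04% in Msmp-Sox9 cells and at 5.20% and 2.86% in Matn1 cells, and its part was not tested. Ddit3, a transcription factor of the stress response, was at 607 CPM and 57.8 CPM, present in 44 of 63 and 29 of 100 cells.

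Many of the genes lowest at P18 came from few cells at P11. Acta2, the smooth muscle actin, had 60 UMIs at P11 and 57 of them lay in 1 cell. With cells of 5000 to 20000 UMIs its log2 ratio of P18 over P11 was 1.11 in place of -6.23. Mfap5 had 72.5% and Ly6a 58.2% of its P11 UMIs in 1 cell. Postn and Aspn were found in 8 and 6 of 63 cells. The summed level of 9 connective-tissue fibroblast markers in Msmp-Sox9 cells was 805 CPM at P11 and 299 CPM at P18, with none of 9 and 1 of 9 at 0. Its part in the progenitor list, where 6 of 12 genes were lower at P18, was not tested. Of that list, 9 of 14 genes were lower at P18 in Matn1 cells, 7 of 17 in Ibsp cells and 2 of 19 in Tnmd cells. Over all genes counted, 7.06% were lower in Msmp-Sox9 cells, and 5.62%, 4.1% and 8.01% in those classes.

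The plates gave a second look at Msmp in other mice. Msmp had 34, 39, 6, 156, 1, 73 and 771 counts on the plates from P7 to P42, and 1, 2, 1, 0, 0, 2 and 3 wells met the droplet rule. Wells with Msmp were compared with wells that had Col2a1 and no Msmp. Both kinds had no Ptprc, Cdh5, Matn1 or Ibsp, and Col2a1 was not required of the wells with Msmp. The comparison used the 5 plates with at least 3 wells of each (P7, P11, P18, P28 and P42), on log2(CPM + 100). Prg4 was higher with Msmp on 4 of 5 plates by a mean of 1.17 (SD 2.11, n = 5; exact two-sided sign-flip permutation p = 0.3125, adjusted 0.417). Scx was lower on 5 of 5, with a mean difference of -1.32 (SD 1.39, n = 5; exact permutation p = 0.0625, adjusted 0.4). Leaving out the P7 plate moved both means. Without it they were 0.26 for Prg4 and -0.75 for Scx. The files come in 2 layouts. On the 3 plates written with decimals the means were -0.02 and -0.62, and on the 2 written without (P7 and P18) they were 2.95 and -2.37. Col1a1 was lower with Msmp on 4 of 5 plates by a mean of -0.65 (SD 0.96, n = 5; exact permutation p = 0.25, adjusted 0.4), and at P42 it was higher, at 22374 CPM against 14648 CPM. With 5 plates p cannot go below 0.0625, and none of the 8 genes compared passed. On the P42 plate 75 of 86 wells had Msmp, 32 of them with a single count, beside a highest well of 296.

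Wells with at least 10 Msmp counts, a limit chosen after the values were seen, numbered 13 on those 5 plates. All 13 had Col2a1, which was higher than in the other wells of the plate on 3 of 5 plates. None had Matn1, but the other wells of the P11, P18, P28 and P42 plates had 0 Matn1 counts too. Col1a1 was lower in the 13 wells than in the other wells of the plate on 5 of 5 plates, with medians over plates of 4685 CPM and 20443 CPM. Prg4 was higher on 3 of 5, at 43924 CPM against 354 CPM at P7 and 15582 CPM against 2363 CPM at P42. At P28 it was at 278 CPM against 1208 CPM. Cytl1 was found in 3 of the 13 wells, and Ibsp, which the droplet rule excluded, in 8. Col1a1 was nevertheless found in all 13 wells, and at P42 it was at 10532 CPM against 16704 CPM.

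**Figure D4:**
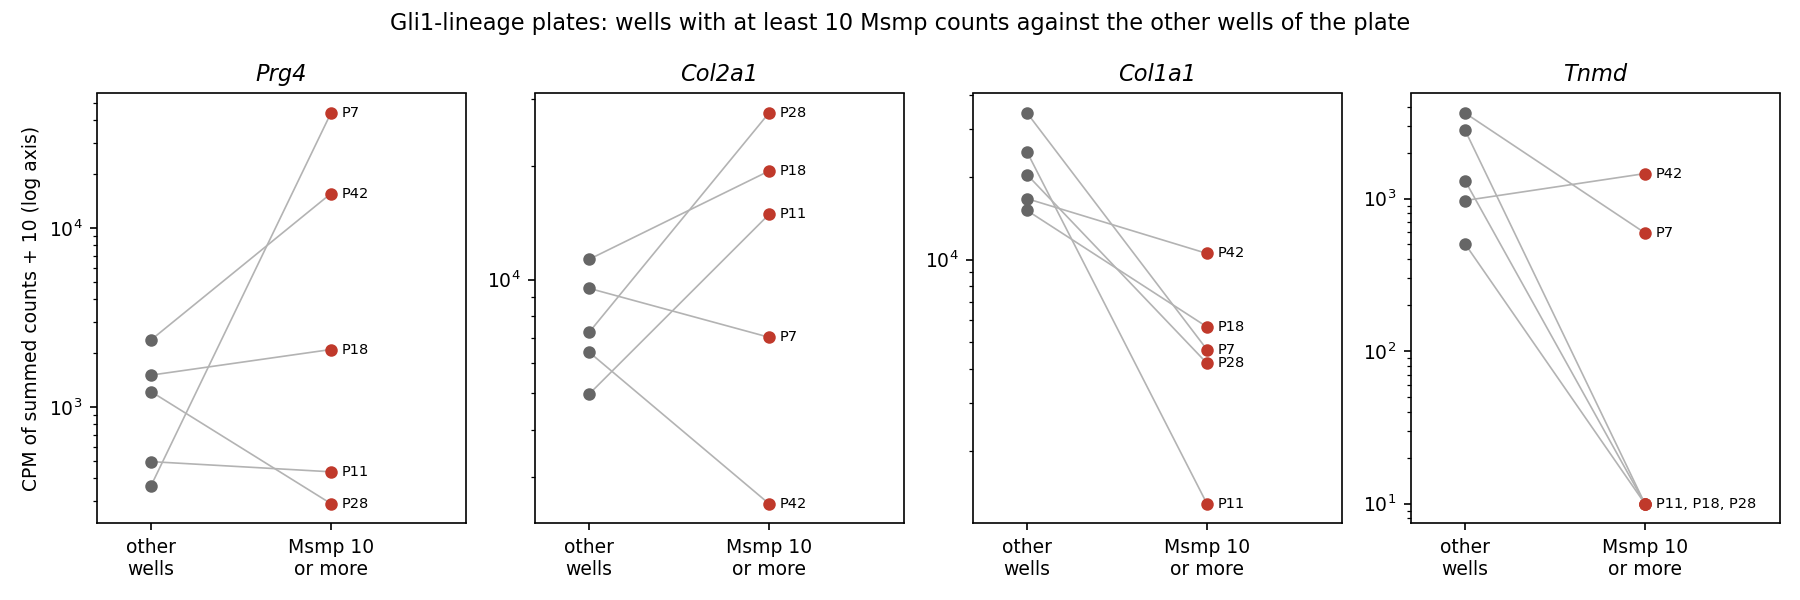
CPM of summed counts plus 10 (log axis) of Prg4, Col2a1, Col1a1 and Tnmd on 5 Gli1-lineage plates, in wells with at least 10 Msmp counts (red, 1 to 5 wells a plate) and all other wells of the plate (grey), joined by plate and labelled by age. Col1a1 is lower in the red wells on all 5 plates, and Prg4 is higher on 3.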

How the data were processed

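Whole-enthesis droplet libraries (P11, P18, P56) and 7 Gli1-lineage plates were read as deposited by the authors: whole-number counts per gene and cell or well, not normalised. Per the file headers the droplet matrices came from 10x software 3.1.0 (P11, P18) and 3.0.2 (P56), and the submitters' processing notes name mm10. The aligner is not given in the sources used here, nor is whether plate counts are molecules. Gene positions are from GENCODE M21 (GRCm38), matched by identifier.

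A cell needed 500 or more genes and no more than 10% mitochondrial counts. The kept droplet libraries had 42834143 (P11), 52461317 (P18) and 38833068 (P56) UMIs, and the plates 235722 to 506912 counts. Counts were summed over the cells of a class and given as CPM with exact Poisson 95% intervals. A class at 0 was set to 3 counts in ratios. Shares use cells thinned to 5000 UMIs, with exact binomial intervals. Doublets were kept. As an alternative the highest scrublet scores (scanpy 1.11.5) were removed up to 0.8% per 1000 cells, which took 70 cells at P11 (3 of them Msmp-Sox9 cells) and 233 at P18 (0). The automatic threshold of scrublet marked 0.034% and 0.019% of cells and was not used.

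Named genes are those of the rule, its markers, the lists, and the 10 genes highest and lowest in each comparison by the smaller of the P11 and P18 ratios, with at least 50 UMIs in each library. Cells with Ptprc were added as a background after the data were seen, and some of them also carried genes of other cells. Members and gene lists were chosen with earlier results of these data known. The fold script was tested on simulated data. Plates were compared with an exact sign-flip permutation test and Benjamini-Hochberg adjustment over 8 genes. TMM factors came from edgeR 4.0.16 (R 4.3.3). Alternatives covered doublets, cell filters, the limits of the rule, scaling, depth, count minimum, fold threshold and, on the plates, pseudocount, Msmp minimum and plates left out.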

Additional observations from a re-analysis of the deposited data

Results flagged for a closer look

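In 5 cases a gene stood at least 2-fold on one side at P11 and on the other side at P18 in Msmp-Sox9 cells relative to a comparison class. There was 1 library at each age, so the difference between ages was not tested. The log2 ratio of Col1a1 over Matn1 cells was -2.54 at P11 and 1.63 at P18, and that of S100a4 was -2.43 and 2.003. Beside these, Col1a1 in Matn1 cells was at 6370 CPM at P11 and 297 CPM at P18, and 5 cells held 91.4% of the Col1a1 UMIs of Msmp-Sox9 cells at P18. Acta2 over Ibsp cells was at 1.63 and -2.59, with 57 of its 60 UMIs at P11 in 1 Msmp-Sox9 cell. Over Tnmd cells, Ddx3y was at -1.69 and 2.70, and Xist at 1.33 and -1.48.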

How the results depend on the processing

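Of 4148 log2 ratios of named genes in the droplets under the alternatives, 4001 stayed on their side of the 2-fold limit (higher, lower or neither), while 141 changed sign. A called difference was reversed in 4, namely the log2 ratio of P18 over P11 of Acta2 (1.11, cells of 5000 to 20000 UMIs), S100a4 (-0.70, Msmp at least 1) and Penk (-0.024, every cell with Msmp at least 20), and that of Fndc1 over Ibsp cells (0.054, Msmp at least 1). With 1000 genes and 5% mitochondrial counts 18 cells were left at P11, genes higher and lower numbered 319 and 226 against Matn1 cells and 146 and 226 against Ibsp cells, and 534 were higher at P18. Thinning before the rule, which leaves out cells under 5000 UMIs, gave a share of 2.93% at P18. TMM factors gave 242 higher and 519 lower against Matn1 cells and 181 higher against Ibsp cells. With at least 100 UMIs the counts higher and lower were 144 and 152 (Matn1 cells), 93 and 163 (Ibsp cells), 258 and 381 (Tnmd cells) and 70 and 83 (P18). With at least 1 UMI they were 2172, 2173 and 2622 higher against Matn1, Ibsp and Tnmd cells, and 1590 higher and 2449 lower at P18. At 4-fold they were 98 and 131, 54 and 117, 221 and 246, and 31 and 71. The cause of these shifts was not tested, except that a count minimum changes how many genes are counted and a 4-fold limit is stricter by construction. On the plates, 0 of 8 genes passed in each setting that gave a value (0 to 0 with a plate left out), a count that says nothing of stability, since 5 or fewer plates cannot give a p under 0.0625. Of 80 mean differences there 5 changed sign: Prg4 (-0.02, files with decimals), Acan (-0.27) and Smoc1 (-0.33, both files without decimals), and Sox9 (-1.21) and Col1a1 (0.43, both with at least 2 Msmp counts). Requiring 2 Msmp counts left 1 plate, and 10 counts left none. Alternatives on Msmp at least 20, on comparison cells in 1 class and on 10 Msmp counts were chosen after seeing the data. No paired analysis was possible because groups had 1 library apiece and so shared too few replicate numbers. Wells on the plates were already compared within a plate. Depth limits genes with few UMIs, such as Gli1, Gdf5 and Scx.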

Other observations

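Tnni2 and Lox were among the 10 genes lowest in Msmp-Sox9 cells relative to both Matn1 and Ibsp cells. Tnni2, a troponin of fast muscle, had 2 and 0 UMIs in them, and stood at 195 CPM and 446 CPM in Matn1 cells and 414 CPM and 343 CPM in Ibsp cells. Tnmd cells had 1.58 CPM and 1.40 CPM of it. Of the 7 muscle genes listed, the other one that could be counted was Tnnt3, another troponin, with 3 and 2 UMIs in Msmp-Sox9 cells, against 25.03 CPM and 10.4 CPM in Matn1 cells and 11.0 CPM and 6.23 CPM in Ibsp cells. Lox, the enzyme that cross-links collagen, had 4 and 3 UMIs in Msmp-Sox9 cells, and stood at 128 CPM and 94.98 CPM in Matn1 cells, 405 CPM and 128 CPM in Ibsp cells and 388 CPM and 105 CPM in Tnmd cells. Tgm2, a transglutaminase, had 1 and 4 UMIs, and Matn1 cells had 46.1 CPM and 146 CPM. Stc2, which encodes the secreted glycoprotein stanniocalcin 2, had 0 and 3 UMIs, against 89.4 CPM and 86.9 CPM in Matn1 cells.

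Cells with Sox9 and at least 20 Col2a1 UMIs but no Msmp, with all other criteria met, numbered 60 at P11 and 67 at P18. Prg4 was at 2796 CPM and 5307 CPM in them, and Col1a1 at 76629 CPM and 629 CPM.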
